A study of Homo sapiens with 9 samples.

Results

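The 9 small nucleolar RNA (snoRNA) host genes SNHG1, SNHG5, SNHG7, SNHG8, SNHG12, SNHG15, SNHG16, GAS5 and ZFAS1 were followed through 9 Chrom-seq libraries from HEK293T cells. They were chosen by name as spliced long noncoding RNAs (lncRNAs) that carry snoRNAs and are known mostly from the cytoplasm, and they are 9 of the 57820 genes in the count table. With all libraries, the study's filter and no pairing of replicates, SNHG8 was the only member past the test at an adjusted p of 0.05, while ZFAS1, SNHG5 and SNHG1 passed under some of the alternatives given with each gene. It lay lower with the CBX1 reader than in the reader-free control, with a fold of 0.68, and lower than with the mutant CBX1_W42A reader, with a fold of 0.647. None of the 9 members was called enriched or depleted at the fold the study required, in any of the 3 comparisons.

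A snoRNA host gene is transcribed by RNA polymerase II, and its introns hold the snoRNAs. After splicing, the introns are debranched and trimmed, and each snoRNA is protected by its core proteins. Box C/D snoRNAs guide the methylation of ribose in ribosomal RNA, and box H/ACA snoRNAs guide the conversion of uridine to pseudouridine. The spliced exons of many hosts are exported and degraded on ribosomes by nonsense-mediated decay, and several hosts share with ribosomal protein mRNAs a 5′ terminal oligopyrimidine tract, which begins with a C and ties translation to growth signals.

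Chrom-seq labels RNA near a chromatin mark in living cells. HEK293T, a human embryonic kidney line, co-expressed 10 copies of the SunTag peptide with an antibody fragment fused to the peroxidase APEX2, so that the peroxidase gathered on the tag. In the CBX1 group the tag was joined to the chromodomain of CBX1, which reads trimethylated lysine 9 of histone H3 (H3K9me3). The CBX1_W42A group had this chromodomain with the W42A change, and in the Control group the tag had no reader, while all 9 libraries shared the peroxidase, the tag and a nuclear localization signal in their names. In all groups the constructs were expressed for 48 h, biotin-aniline was present at 500 μM during 30 min, and hydrogen peroxide at 1 mM then started the labeling, which lasted 1 min. Biotinylated, polyadenylated RNA was sequenced. Each group had 3 replicates, with between 8379542 and 11082852 counts per library. Whether a count is a read pair or a single read is not stated. The study calls its replicates independent, but neither it nor the labels say here whether they were separate cultures, so the p-values measure the spread between these libraries, which may be technical. The readers were expressed from transfected constructs, and the amount of reader in each culture was not measured here. The CBX1_W42A samples were numbered in the series apart from the control and CBX1 samples. The labels do not say whether all were prepared together.

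Of the 7 markers listed for HEK293T cells, all were counted in every library, led by VIM at between 417 and 615 CPM, the count scaled to the size of its library. Of the markers of other cell types, SFTPC and HBB had 0 counts in every library, PTPRC had at most 2 counts and ALB had between 4 and 25. Values are given as CPM scaled by TMM factors over all 9 libraries. A difference is the log2 fold change of edgeR's quasi-likelihood test, with its standard error (SE) and an adjusted p by the Benjamini-Hochberg method over all genes tested. A gene was called at an adjusted p under 0.05 together with an absolute log2 fold change of at least 0.75. The CBX1 and CBX1_W42A groups were each set against the same 3 control libraries.

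The starts of SNHG5, ZFAS1, GAS5, SNHG8 and SNHG12 are shown because they hold, or lack, the pyrimidine run after which such messages are named. SNHG12 is among them for its run, the longest of the members, and not for a difference between groups. Each is RefSeq sequence of GRCh38.p14 from 20 bases before to 50 bases after the annotated start, and capitals mark the unbroken run of C and T from the first transcribed base. In SNHG8 that run was 1 base long, and in GAS5, which RefSeq starts on an A, there was none. The longest run of C and T in the GAS5 window had 8 bases and began at base 32 counted from that start.
SNHG5, chr6:85678684-85678753, minus strand: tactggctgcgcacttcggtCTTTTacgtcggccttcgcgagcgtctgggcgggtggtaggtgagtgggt
ZFAS1, chr20:49278622-49278691, plus strand: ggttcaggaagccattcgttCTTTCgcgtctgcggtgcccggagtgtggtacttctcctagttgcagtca
GAS5, chr1:173868996-173869065, minus strand: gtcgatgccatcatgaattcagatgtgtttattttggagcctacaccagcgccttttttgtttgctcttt
SNHG8, chr4:118278742-118278811, plus strand: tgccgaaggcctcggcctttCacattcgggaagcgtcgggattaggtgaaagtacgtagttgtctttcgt
SNHG12, chr1:28581824-28581893, minus strand: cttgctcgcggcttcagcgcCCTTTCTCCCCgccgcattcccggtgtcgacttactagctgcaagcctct

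A C followed without a break by pyrimidines, over at least 4 bases in all from the first base on the coding strand, was found in 4 of the 8 members with an entry in the RefSeq table (SNHG5, SNHG7, SNHG12 and ZFAS1). The same start was found in 5.45% of the 35116 RefSeq genes of the table and in 54.9% of its 82 ribosomal protein genes. SNHG12 had the longest run of the members, 11 bases. SNHG1 began with a run of 3 bases, and SNHG16 is annotated to start on a G. These matches describe the annotated start base alone.

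By RefSeq names, 36 snoRNA genes lie within the 9 members, 27 of them box C/D, 8 box H/ACA and 1 without a class in its name. GAS5 holds 11 of them, SNHG1 9, SNHG12 4, SNHG16 and ZFAS1 3 each, SNHG5 and SNHG7 2 each, and SNHG8 and SNHG15 1 each. SNHG1, SNHG5, SNHG16 and ZFAS1 hold box C/D snoRNAs, and SNHG7, SNHG8 and SNHG15 hold box H/ACA snoRNAs (SNORA17A and SNORA17B, SNORA24 and SNORA9). SNHG12 and GAS5 hold both classes. The intronic cargo of ZFAS1 is shown because it is what the gene delivers to the nucleolus, and it is read from GRCh37, the build of the counts, with box C (TGATGA) and box D (CTGA) in capitals.
SNORD12C, chr20:47895477-47895565, plus strand: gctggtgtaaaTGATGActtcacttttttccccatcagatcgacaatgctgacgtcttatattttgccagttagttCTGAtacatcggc
SNORD12B, chr20:47896856-47896946, plus strand: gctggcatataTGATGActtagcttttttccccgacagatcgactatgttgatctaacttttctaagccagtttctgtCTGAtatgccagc
SNORD12, chr20:47897220-47897309, plus strand: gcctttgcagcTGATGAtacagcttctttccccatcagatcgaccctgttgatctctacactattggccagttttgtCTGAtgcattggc

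All 3 lie in introns of ZFAS1. The 2 boxes were searched on the coding strand, box C in the first 25 bases and box D in the last 25, and both were found in 52.5% of the 387 SNORD genes of the count table. These 3 genes, with SNORD99 in SNHG12, SNORD1B in SNHG16 and SNORD78 in GAS5, are the 6 intronic snoRNA genes that the count table lists inside members, and each had 0 counts in all 9 libraries. The libraries were made from polyadenylated RNA, and a read that fell in several genes sharing a strand was assigned to no gene. No level of a snoRNA itself was therefore measured, and every value here belongs to the host.

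The hosts spanned from 1115 bases in SNHG8 to 17742 bases in SNHG5. In the build of the counts they lie at chr11:62619460-62623386 (SNHG1), chr6:86370710-86388451 (SNHG5), chr9:139615818-139622636 (SNHG7), chr4:119199864-119200978 (SNHG8), chr1:28905050-28909495 (SNHG12), chr7:45022622-45026560 (SNHG15), chr17:74553848-74561430 (SNHG16), chr1:173833038-173838020 (GAS5) and chr20:47894715-47905797 (ZFAS1). SNHG8, SNHG16 and ZFAS1 are on the plus strand and the others on the minus strand. The transcript model with the most exons had 13 exons in GAS5, 12 in SNHG1, 9 in SNHG5 and between 4 and 6 in the others, and its spliced length ran from 528 bases in SNHG8 to 3059 bases in SNHG16. Guanine made up between 21.7% of these models in SNHG1 and 32.2% in SNHG7, within the 5th to 95th percentile of all transcripts (18.6% to 32.3%). SNHG7, SNHG12, SNHG16, GAS5 and ZFAS1 overlap a gene on the opposite strand, respectively FAM69B, TRNAU1AP, ST6GALNAC2, GAS5-AS1 with ZBTB37, and ZNFX1. Genes wholly inside another gene had counts in 0 of 7910 cases on the same strand. On the opposite strand 4071 of 9764 had counts, so strand was used in the counting.

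Every member was well counted, from a count of 96 for SNHG8 in CBX1 replicate 2 to 1685 for ZFAS1 in CBX1 replicate 1. All 9 passed the filter of more than 18 counts over the 6 libraries of each comparison. Per kilobase of spliced length, the control levels fell into a high and a low set. SNHG15 stood at 95.9 ± 29.8 CPM per kilobase (SD, n = 3), SNHG5 at 94.2 ± 10.1, SNHG1 at 91.5 ± 8.96, ZFAS1 at 84.4 ± 20.4 and GAS5 at 82.3 ± 8.59, and neighbours among these 5 did not differ beyond their spread. SNHG8 followed at 37.5 ± 1.65, SNHG16 at 29.7 ± 3.26, SNHG12 at 20.6 ± 2.01 and SNHG7 at 18.1 ± 0.344, each below its predecessor by more than their SDs, although SNHG12 and SNHG7 were apart only narrowly. The length is that of 1 model, while reads from introns were counted too. Per kilobase of the whole span these sets did not hold. There SNHG5 was lowest in control at 4.34 CPM per kilobase, with ZFAS1 at 8.19 and GAS5 at 11.9, while SNHG8 stood at 17.8.

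**Figure D1:**
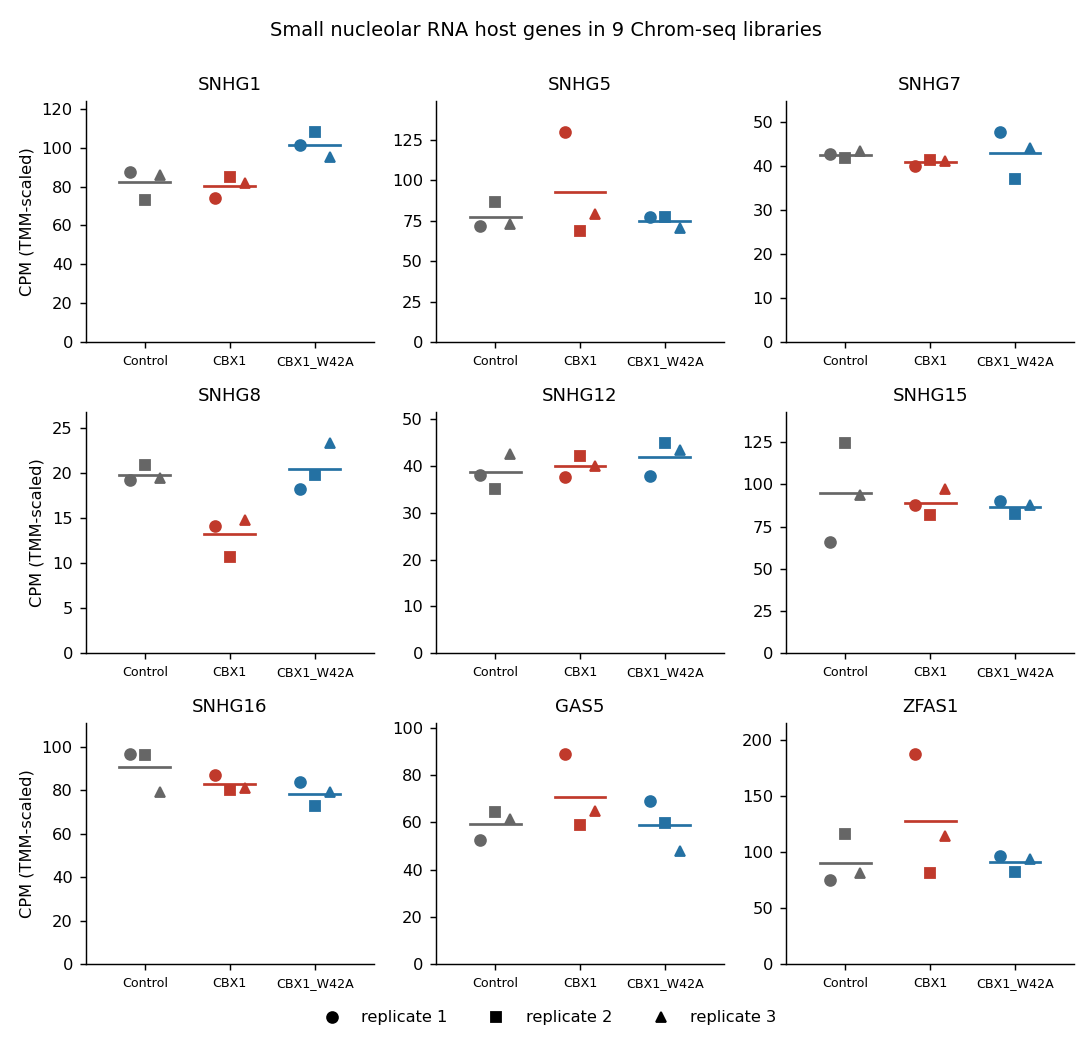
TMM-scaled CPM of the 9 snoRNA host genes (vertical axis, from 0, its own range in each panel) in the 3 groups, with 1 point per library, its shape giving the replicate, and a line at the group mean. SNHG8 shows all 3 CBX1 libraries below the other 6, SNHG1 shows all 3 CBX1_W42A libraries above the other 6, and ZFAS1, SNHG5 and GAS5 show CBX1 replicate 1 on top.

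One library stood apart for a part of the members. In CBX1 replicate 1, ZFAS1 was 1.91 times the mean of CBX1 replicates 2 and 3, SNHG5 1.76 times and GAS5 1.44 times, and each of these 3 was highest there among all 9 libraries. The ratio was between 0.886 and 1.11 for the other 6 members. Over the 10748 genes with a mean CPM of at least 10, the median ratio was 0.993, 1.34% of them (144 genes) reached 1.4, as these 3 members did, and 0.651% (70 genes) reached 1.5, as ZFAS1 and SNHG5 did. Results for ZFAS1, SNHG5 and GAS5 are therefore given with and without that library.

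The first comparison, CBX1 against control, asks which RNAs are captured near chromatin that the reader binds. In it, 1 of the 9 members passed an adjusted p of 0.05, and it was lower, beside 20.1% of all 18837 genes tested that passed in either direction and 9.46% that passed as lower. By DESeq2, 1 member passed as well, and 2 members had an unadjusted p under 0.05 in edgeR. None was called (0 of 9, and 0 of 9 by DESeq2), beside 7.4% of all genes. Over the members, the log2 fold change had a median of -0.01, beside 0.03 over all genes tested. For 7 of the 9 members the 95% interval of the log2 fold change lay inside ±0.75, so that a change of the size required for a call was outside it. In these bulk libraries, fewer labeled cells and less labeled RNA per cell cannot be told apart.

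SNHG8, the host of SNORA24, was the member that passed. Its level was 19.2, 20.8 and 19.4 CPM in control replicates 1 to 3, 14.1, 10.6 and 14.8 CPM with CBX1, and 18.2, 19.8 and 23.3 CPM with CBX1_W42A. The 3 CBX1 libraries were the 3 lowest of the 9, while the control and CBX1_W42A libraries overlapped. These levels rest on few reads, between 96 and 153 counts with CBX1. Counting alone gives an error of 8.93% per library there, if each count is independent. The spread between the replicates was 16.8%. Against control the log2 fold change was -0.56 (SE 0.15, 95% interval -0.87 to -0.24, edgeR adjusted p = 0.0153). The adjusted p lay between 0.0049 and 0.0662 over 16 alternatives and was under 0.05 in 15 of them. Without CBX1 replicate 2, the lowest library, the log2 fold change was -0.43 and the adjusted p 0.0662.

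The other hosts of box H/ACA snoRNAs alone were close to the control. SNHG7, which lies antisense to FAM69B, was at 42.7, 41.8 and 43.4 CPM in control and at 40.0, 41.4 and 41.2 CPM with CBX1. The groups did not overlap, but the gap was small, with a log2 fold change of -0.04 (SE 0.10) and an edgeR adjusted p of 0.829. SNHG15, the host of SNORA9, was at 65.7, 124 and 93.7 CPM in control and at 87.7, 81.9 and 97.1 CPM with CBX1, so that the CBX1 values lay inside the wide control range (log2 fold change -0.06, SE 0.16, adjusted p = 0.821). In 2 members, SNHG7 and SNHG8, all CBX1 libraries lay below all control libraries, beside 38.0% of all genes tested whose groups did not overlap in either direction.

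Among the box C/D hosts, ZFAS1 had the largest difference. Its level was 75.2, 116 and 81.2 CPM in control and 187, 81.6 and 114 CPM with CBX1. CBX1 replicates 2 and 3 lay within the control range, and replicate 1 lay far above it. The log2 fold change was 0.52 (SE 0.21, edgeR adjusted p = 0.0943, 0.408 by DESeq2), with a 95% interval from 0.07 to 0.97. The adjusted p lay between 2.09e-05 and 0.627 over 16 alternatives and was under 0.05 in 3, the lowest without a filter on low counts. Without CBX1 replicate 1 the log2 fold change was 0.13 (adjusted p = 0.627). Without CBX1 replicate 2 it was 0.76 (adjusted p = 0.0125), which is a call, and without control replicate 2 it was 0.72 (adjusted p = 0.0161).

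SNHG5, which carries SNORD50A and SNORD50B, was at 71.6, 86.6 and 72.9 CPM in control and at 129.6, 68.3 and 79.1 CPM with CBX1. GAS5, a transcript first noted in growth-arrested cells, was at 52.5, 64.4 and 61.5 CPM in control and at 88.8, 58.9 and 64.8 CPM with CBX1. For both genes CBX1 replicates 2 and 3 lay in or next to the control range, and replicate 1 lay above every other library. The log2 fold change was 0.29 for SNHG5 (SE 0.17, adjusted p = 0.246, between 0.0475 and 0.846 over 16 alternatives) and 0.28 for GAS5 (SE 0.13, adjusted p = 0.152, between 0.0591 and 0.685). SNHG5 passed only without a filter on low counts. Without CBX1 replicate 1 it was -0.04 for SNHG5 and 0.08 for GAS5.

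SNHG1, which carries SNORD25 to SNORD31 along its introns and SNORD22, was level with the control. It was at 87.7, 72.9 and 85.8 CPM in control and at 73.9, 84.7 and 82.0 CPM with CBX1, a log2 fold change of -0.01 (SE 0.10, adjusted p = 0.966) with a 95% interval from -0.22 to 0.20. SNHG16, the host of 3 SNORD1 snoRNAs, was at 96.6, 96.4 and 79.2 CPM in control and at 87.1, 80.3 and 81.1 CPM with CBX1 (log2 fold change -0.11, SE 0.10, adjusted p = 0.476). SNHG12, a host of both classes, was at 38.0, 35.1 and 42.6 CPM in control and at 37.7, 42.04 and 40.0 CPM with CBX1 (log2 fold change 0.08, SE 0.11, adjusted p = 0.661). The groups overlapped for all 3 genes.

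**Figure D2:**
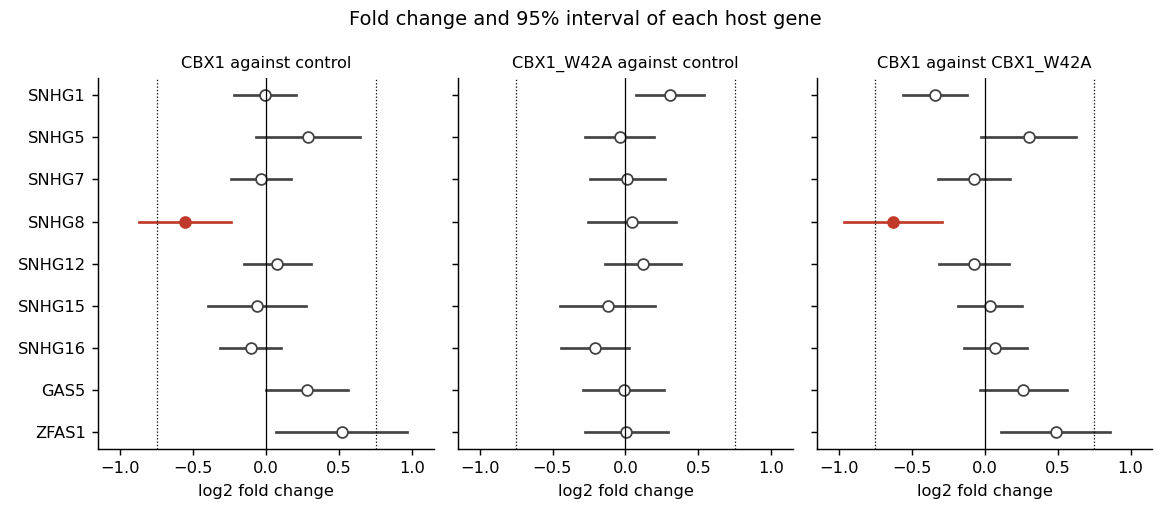
Log2 fold change (horizontal axis) of each snoRNA host gene in the 3 comparisons, with 95% intervals as lines and dotted lines at ±0.75. Filled red points mark an adjusted p under 0.05, which SNHG8 alone had, at -0.56 against control and -0.63 against CBX1_W42A.

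The second comparison, CBX1_W42A against control, shows what a reader with the W42A change captured. None of the 9 members passed an adjusted p of 0.05 in edgeR, 1 had an unadjusted p under 0.05, and DESeq2 found 0, beside 2.62% of all 18680 genes tested. None was called, beside 0.996% of all genes. All 9 intervals lay inside ±0.75, and the median log2 fold change was 0.01, beside 0.01 over all genes.

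SNHG1 had the largest difference here and was the 1 member whose groups did not overlap, beside 24.6% of all genes. It was at 101, 108 and 95.2 CPM with CBX1_W42A, above all 6 libraries of the other groups. The log2 fold change against control was 0.31 (SE 0.11, 95% interval 0.07 to 0.54, edgeR adjusted p = 0.139), and the adjusted p lay between 0.0662 and 0.333 over 16 alternatives. SNHG16 was at 84.0, 72.7 and 79.1 CPM with CBX1_W42A, a log2 fold change of -0.21 (SE 0.11, adjusted p = 0.323).

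The remaining 7 members lay between -0.12 and 0.12 on the log2 scale. ZFAS1 was at 96.9, 82.6 and 93.5 CPM with CBX1_W42A, a log2 fold change of 0.01, and GAS5 was at 69.0, 59.6 and 47.9 CPM, a log2 fold change of -0.01. SNHG5 was at 77.0, 77.2 and 70.1 CPM, a log2 fold change of -0.04. All 3 overlapped with the control and lay below CBX1 replicate 1. Of the hosts with box H/ACA snoRNAs, SNHG8 differed by 0.04 on the log2 scale, SNHG7, at 47.8, 37.0 and 44.1 CPM, by 0.01, and SNHG15, at 90.3, 82.2 and 87.8 CPM, by -0.12. SNHG12, at 37.8, 44.8 and 43.3 CPM, differed by 0.12. Their adjusted p-values were at least 0.634.

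The third comparison, CBX1 against CBX1_W42A, sets the reader against its own mutant without the shared control. It uses the same CBX1 libraries as the first comparison, so its results are not independent of those against control. SNHG8 again was the member that passed, 1 of 9, beside 2.24% of all 19360 genes tested in either direction and 0.925% as lower. DESeq2 also found 1, and 3 members had an unadjusted p under 0.05 in edgeR. None was called (0 of 9 in edgeR and in DESeq2), beside 0.997% of all genes. The members' median log2 fold change was 0.03, beside -0.004 over all genes, and 7 of the 9 intervals lay inside ±0.75.

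For SNHG8 the log2 fold change was -0.63 (SE 0.16, 95% interval -0.96 to -0.29, edgeR adjusted p = 0.0420). All 3 CBX1 libraries lay below all 3 CBX1_W42A libraries, and so did those of SNHG1, beside 21.3% of all genes whose groups did not overlap. The result stood close to the threshold. Over 16 alternatives the adjusted p lay between 0.0081 and 0.154 and was under 0.05 in 8, and leaving out a library kept it under 0.05 only where CBX1_W42A replicate 1 was left out (0.0451). Without CBX1 replicate 2 the adjusted p was 0.144, without CBX1 replicate 1 it was 0.110, without CBX1 replicate 3 it was 0.0815, without CBX1_W42A replicate 2 it was 0.0591 and without CBX1_W42A replicate 3 it was 0.154. The direction was the same in each of these, with log2 fold changes from -0.72 to -0.49.

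SNHG1 was lower with CBX1 than with CBX1_W42A by a log2 fold change of -0.34 (SE 0.11, edgeR adjusted p = 0.0899, between 0.0402 and 0.335 over 16 alternatives). Whether the replicate numbers pair the libraries of these groups is not stated by the labels. With the replicate number as a block the edgeR adjusted p of SNHG1 was 0.0402. For ZFAS1 the log2 fold change was 0.49 (SE 0.18, adjusted p = 0.167), and with the block it was 0.41 (adjusted p = 0.0241, between 0.0024 and 0.826 over 16 alternatives). It also passed without a filter on low counts and without CBX1 replicate 2 (0.73, adjusted p = 0.0081). Without CBX1 replicate 1, ZFAS1 differed by 0.10 (adjusted p = 0.826). SNHG8 passed with the block too (log2 fold change -0.63, adjusted p = 0.0081), so that 3 members passed there in place of 1. Over all 19360 genes tested, the block took the number past an adjusted p of 0.05 from 434 to 1037.

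SNHG5 had a log2 fold change of 0.30 (SE 0.16, adjusted p = 0.352) and GAS5 of 0.26 (SE 0.14, adjusted p = 0.372), and without CBX1 replicate 1 these were -0.02 and 0.07. The other 4 members, SNHG7, SNHG12, SNHG15 and SNHG16, lay between -0.08 and 0.07, with overlapping groups and adjusted p-values of at least 0.782.

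**Figure D3:**
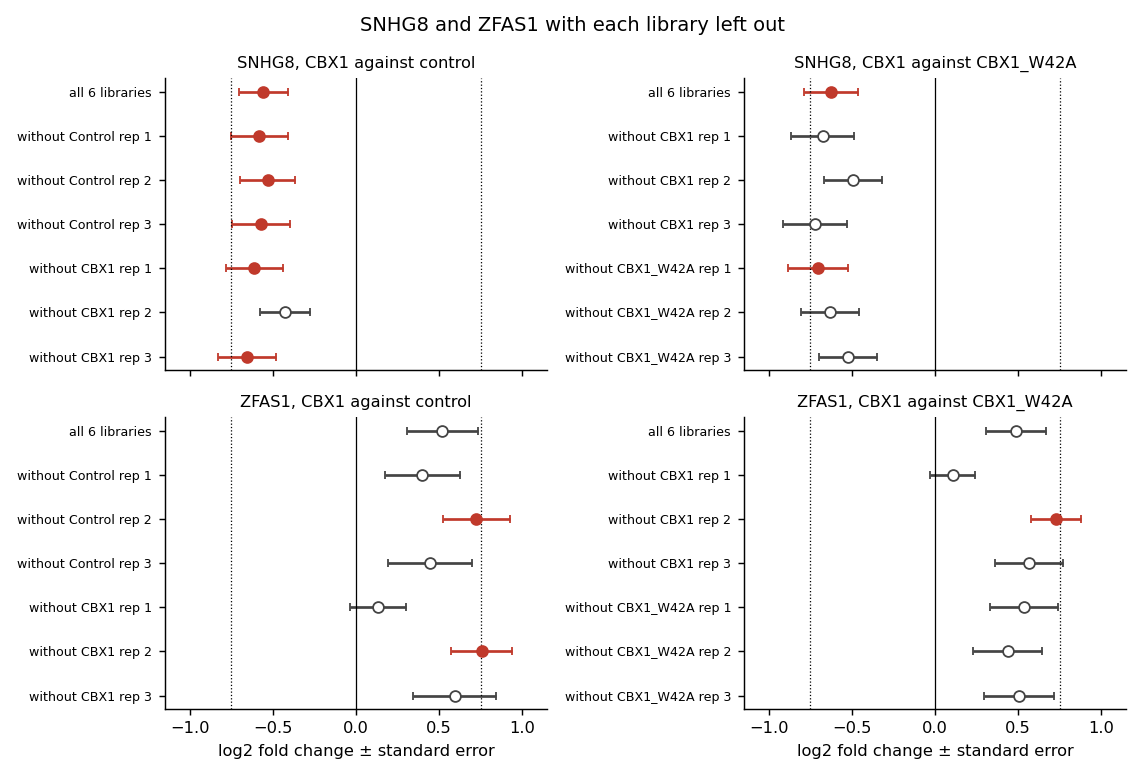
Log2 fold change with its standard error (horizontal axis) of SNHG8 (top) and ZFAS1 (bottom) against control (left) and against CBX1_W42A (right), with all 6 libraries and with each library left out. Filled red points mark an adjusted p under 0.05, and dotted lines stand at ±0.75. SNHG8 kept its direction throughout, while ZFAS1 came to 0.13 and 0.10 without CBX1 replicate 1.

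Members also varied between the libraries of 1 group. The spread of the 3 replicates was smallest for SNHG7 in CBX1 (coefficient of variation 1.80%) and in control (1.90%), both below the counting error of about 5.09% and 5.07% per library. It was largest for ZFAS1 (42.4%) and SNHG5 (35.4%) in CBX1 and for SNHG15 in control (31.0%), where counting gives between 2.89% and 3.43%. Summed over the 9 members, the level was 595.7 ± 56.3 CPM in control (SD, n = 3), 637 ± 100.1 CPM with CBX1 and 597 ± 22.1 CPM with CBX1_W42A, with CBX1 replicate 1 the highest at 746 CPM. The groups overlapped in this sum.

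Over the 9 libraries, log2 CPM of SNHG5 and ZFAS1 varied alike (Pearson r 0.934), and so did SNHG5 and GAS5 (0.862) and GAS5 and ZFAS1 (0.808). SNHG12 and SNHG16 varied in opposite directions (r -0.896). These values describe 9 points that share library scaling and, for the first 3 pairs, the same extreme library. Outside the lists, the 5 genes of 10392 whose log2 CPM varied most like the mean standardised level of the members were ARPC2 (r 0.923), SLC1A3 (0.920), TXNDC17 (0.914), PHF5A (0.910) and CCDC109B (0.901).

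Ribosomal protein mRNAs are the other large class with snoRNAs in their introns and pyrimidine starts. The summed level of the 28 ribosomal protein genes that hold a snoRNA gene was 15150, 19840 and 16850 CPM in control replicates 1 to 3, 19370, 15700 and 18700 CPM with CBX1 and 20730, 14740 and 16740 CPM with CBX1_W42A. In CBX1 replicate 1 this sum was high but within the range of the other libraries, whereas ZFAS1, SNHG5 and GAS5 were above theirs. Its part in the levels of the 3 hosts was not tested. Against control, 0 of the 28 passed an adjusted p of 0.05 with CBX1 in edgeR (5 at an unadjusted p under 0.05, 0 by DESeq2) and 0 with CBX1_W42A (1 and 0), with medians of 0.12 and 0.03. Against CBX1_W42A, 3 were higher with CBX1, all called, beside 0.997% of all genes called, while 14 had an unadjusted p under 0.05 and DESeq2 found 1.

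**Figure D4:**
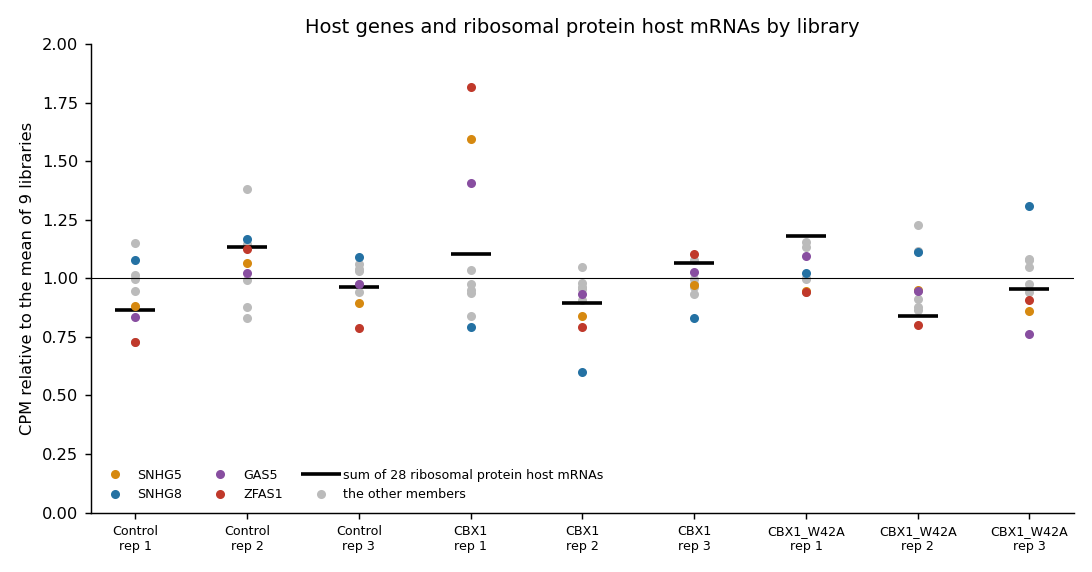
CPM of each snoRNA host gene in each library relative to its mean over the 9 libraries (vertical axis, from 0), as points, with a bar for the sum of 28 ribosomal protein host mRNAs. ZFAS1, SNHG5 and GAS5 leave the other members in CBX1 replicate 1, where the bar is not the highest of the 9, and SNHG8 is lowest in CBX1 replicate 2.

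Noncoding hosts outside the 9 gave no call. Of 11 further genes, 7 were tested, and 0 passed in any comparison in edgeR (0, 1 and 1 at an unadjusted p under 0.05, 0 by DESeq2). Against control with CBX1, SNHG6 had a log2 fold change of 0.20 (68.3 and 77.2 CPM), SNHG17 of -0.10 (67.5 and 61.9 CPM), SNHG11 of 0.29 (12.7 and 15.3 CPM) and the scarce SNHG9 of -0.90 (1.26 and 0.646 CPM, SE 0.59), with adjusted p-values of at least 0.175. SNHG3 lies inside RCC1 on the same strand and had 0 counts, as did MEG8. Among 419 protein-coding genes that hold a snoRNA gene, 380 were tested against control. With CBX1 22 were higher and 68 lower at an adjusted p under 0.05, with a median log2 fold change of -0.10. Over all genes tested, 20.1% passed in either direction and 9.46% passed as lower. At the fold of a call 15 were higher and 2 lower, beside 7.4% of all genes called in either direction. Of these hosts, N4BP2L1 had a log2 fold change of 2.15 (adjusted p = 4.88e-06) and TMEM232 of 1.85 (adjusted p = 1.95e-05), while the abundant hosts EEF2 (-0.22, adjusted p = 0.133) and NCL (-0.10, adjusted p = 0.425) did not pass. With CBX1_W42A against control 5 were higher and 15 lower (3 and 0 called), beside 2.62% of all genes that passed and 0.996% called. With CBX1 against CBX1_W42A 6 were higher and 3 lower (6 and 1 called), beside 2.24% that passed and 0.997% called.

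The core proteins that bind snoRNAs held no gene past the test. With CBX1 against control, 0 of the 4 box C/D proteins passed in edgeR (0 at an unadjusted p under 0.05, 0 by DESeq2), with a log2 fold change of -0.17 for FBL, the methyltransferase, and 0.001 for NOP56. Of the 4 box H/ACA proteins, 0 passed (2 at an unadjusted p under 0.05, 0 by DESeq2), with -0.22 for DKC1, the pseudouridine synthase, and -0.29 for GAR1. In the other comparisons 0 of either list passed in edgeR (at most 1 at an unadjusted p under 0.05, 0 by DESeq2). Among 9 assembly factors, 4 were lower with CBX1 than in control, beside 9.46% of all genes that passed as lower. ZNHIT6 (-0.42, edgeR adjusted p = 0.0044) and RUVBL2 (-0.30, adjusted p = 0.0272) were among them, none was called and DESeq2 found 2. With CBX1_W42A against control, 0 of these 9 passed (3 at an unadjusted p under 0.05, 0 by DESeq2), and 0 passed between the readers (1 and 0).

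Of 10 factors of nonsense-mediated decay, 9 were tested and 5 were lower with CBX1 than in control, none of them called. Over all genes tested, 9.46% passed as lower there. SMG9, a partner of the kinase SMG1, had a log2 fold change of -0.50 (adjusted p = 0.0029), SMG5 of -0.39 (adjusted p = 0.0072) and UPF2 of -0.30 (adjusted p = 0.0252), and DESeq2 also found 5. With CBX1_W42A against control 1 passed, SMG9 at -0.49 (adjusted p = 0.0308), and between the readers 0 passed in edgeR (3 at an unadjusted p under 0.05, 1 by DESeq2). These are levels of captured mRNA, and decay of the host RNAs was not measured.

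The nuclear-retained lncRNAs MALAT1, NEAT1 and KCNQ1OT1, listed with earlier results of these data known, were all called higher with CBX1 than in control. MALAT1 had a log2 fold change of 1.08 (SE 0.10, adjusted p = 9.31e-06), NEAT1 of 1.00 (adjusted p = 0.00034) and KCNQ1OT1 of 1.17 (adjusted p = 5.45e-05). With CBX1_W42A the same genes had log2 fold changes of 0.67, 0.60 and 1.06, all with an adjusted p under 0.05, of which 1 was called and DESeq2 found 2. Between the readers 0 of the 3 passed in edgeR (2 at an unadjusted p under 0.05, 1 by DESeq2), with adjusted p-values of 0.0750 for MALAT1, 0.191 for NEAT1 and 0.787 for KCNQ1OT1. The upper bound of the 95% interval was below the 0.75 of a call for 8 of the 9 hosts with CBX1, and for all 9 with CBX1_W42A. Where the host RNAs lay in the cell was not measured in these libraries.

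**Figure D5:**
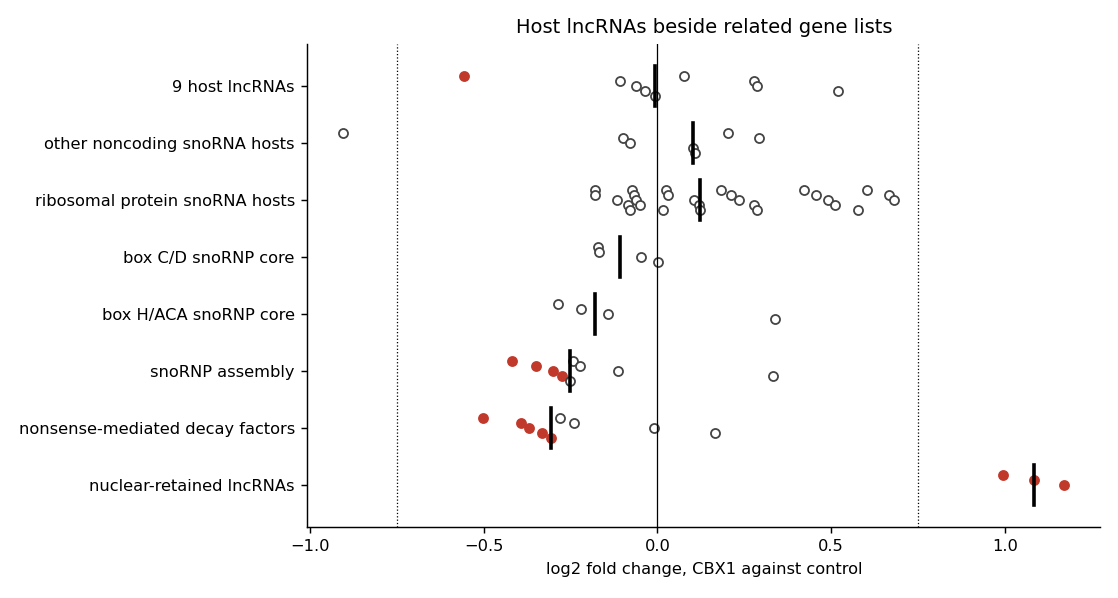
Log2 fold change of CBX1 against control (horizontal axis) for the 9 host lncRNAs and 7 related lists, with 1 point per gene tested, a bar at each list's median and dotted lines at ±0.75. Filled red points mark an adjusted p under 0.05, seen in SNHG8 among the hosts, in 4 assembly factors, in 5 decay factors and in all 3 nuclear-retained lncRNAs.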

How the data were processed

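Gene-level counts of 9 Chrom-seq libraries were used. Per the labels and the study's methods, the authors used fastp (version 0.23.1) for trimming, HISAT2 (version 2.1.0) for alignment to hg19, and featureCounts (version 2.0.1) with the GENCODE version 19 annotation for counting. The deposited counts were whole numbers without normalization. The length listed for each of the 57820 genes equals its span, so introns were counted. No column was left out (0 not used) and 0 rows named no gene.

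Each pair of groups was fitted by edgeR (version 4.0.16, under R version 4.3.3): TMM factors, more than 18 counts over 6 libraries, the quasi-likelihood test, and Benjamini-Hochberg adjustment over all genes tested. DESeq2 (version 1.42.0) was an alternative, beside other scalings and filters, all 9 libraries in one fit, an abundance trend removed, a replicate block, other fold thresholds and leaving out each library. The fit was tested on simulated data. Tables and figures used Python (version 3.11.15), pandas (version 2.3.3) and matplotlib (version 3.10.9).

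The members and the lists beside them were chosen with earlier results of these data known. All 9 members were named. Of each list, the counts, the median and up to 4 genes were eligible for naming, the 2 most abundant and the 2 with the smallest p with CBX1 against control. Transcript models came from GENCODE version 44 lifted to GRCh37, as the model with the most exons within 50 bases of the counted span, and starts and snoRNA names from RefSeq (GRCh38.p14), which had a start for 8 of the 9 members (not SNHG15). Deviations of same-numbered libraries went weakly together between CBX1 and CBX1_W42A (r = 0.257, 0.101 and 0.169 over 10748 genes). For replicate 2 the same number was not the best match, so whether the numbers pair these libraries is not settled. In both other comparisons r ran from -0.36 to 0.212. Replicates of a group differed beyond sampling noise (chi-square divided by its degrees of freedom, 4.95 to 12.4). Counting errors cover the sampling of reads only. Sequencing depth was between 8379542 and 11082852 counts per library.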

Additional observations from a re-analysis of the deposited data

Results flagged for a closer look

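SNHG8 is listed here because its level differed between the readers in the CBX1 against CBX1_W42A fit given above, with a log2 fold change of -0.627 (edgeR adjusted p = 0.0420), lower with CBX1 in 3 of 3 libraries. The same value is both the reason for listing it and its test, and the adjusted p was under 0.05 in 8 of 16 alternatives (0.0081 to 0.154). Against the shared control libraries the values were -0.56 with CBX1 and 0.04 with CBX1_W42A. The level of SNHG8 was 13.2 ± 2.22 CPM with CBX1 (SD, n = 3), 20.4 ± 2.60 CPM with CBX1_W42A and 19.8 ± 0.870 CPM in control. A cause was not tested.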

How the results depend on the processing

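Over 459 values of single members under an alternative, 397 kept their direction and their side of the threshold, 43 that did not pass before or after had another sign, 11 lost significance, 8 gained it, and 0 reversed among those that passed. With CBX1 against control, the 1 member past an adjusted p of 0.05 became 3 without a filter on low counts, and between 1 and 2 with a library left out. The count called, 0, was 1 with no minimum fold and between 0 and 1 with a library left out (ZFAS1, without CBX1 replicate 2). SNHG8 there ranged from -0.65 to -0.43 with a library left out, and in a test of a change above log2 0.75 its value of -0.56 did not pass. Between the readers, the 1 member past the threshold became 0 with upper-quartile factors, with the library size alone or with at least 10 counts in every library, 2 without a filter, 3 with the replicate block, and between 0 and 1 with a library left out. The count called, 0, was 1 with no minimum fold. SNHG8 there was -0.61 with upper-quartile factors, -0.59 with the library size alone and -0.61 with at least 10 counts, none past the threshold, and its value of -0.63 did not pass the test above log2 0.75. With a library left out it ranged from -0.72 to -0.49. The causes were not tested.

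It is not settled whether the replicate numbers pair the libraries of CBX1 and CBX1_W42A, and the labels do not state it. Between these groups the replicate block moved SNHG1 and ZFAS1, given above, past the threshold of the adjusted p, and no other member. The labels state no pairing in the other comparisons either. With the replicate block SNHG8 was -0.57 against control with CBX1 (adjusted p = 0.0350), and the number of all genes past the threshold went from 3780 to 2460, and from 489 to 591 with CBX1_W42A. Upper-quartile factors and the library size alone moved the median of all genes with CBX1 against control from 0.03 to 0.11 and 0.12. Depth limits SNHG8 most, with as few as 96 counts in a library.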
